A study of Mus musculus with 10 samples.

Results

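In embryonic stem cells that had lost the chromatin remodeller subunit BAF250a, the repressive histone mark H3K27me3 was called at 2021 autosomal places where it was not called in control cells and where neither genotype carried the promoter mark H3K4me3. These were small intervals with few reads, with a median of 63 ChIP reads over 3800 bp at 2.51-fold over input. Their median gap to the nearest control H3K27me3 interval was 71.6 kb, and 859 of them (42.5%, 95% interval 40.3 to 44.7%) had no control H3K27me3 interval within 100 kb. Such distances were not particular to these intervals. Intervals called only in control cells, also without H3K4me3, lay at a median of 74.8 kb from KO H3K27me3. Of these 2747, 1237 had none within 100 kb. KO-only intervals with H3K4me3 lay at a median of 61 kb from control H3K27me3, and 201 of 503 had none within 100 kb. Of 79 KO H3K27me3 intervals on chromosome 7 from 5 to 20 Mb, 71 were among the 2021, against 33.3% over all autosomes. Control cells had 17 H3K27me3 intervals of any class there, and the stretch was picked out after the values were seen.

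The intervals, called islands by the peak caller SICER, were chosen from the calls themselves. Starting from the 6833 islands of the KO H3K27me3 list, 6573 lay on autosomes and 6066 remained after 3 segments crowded with input-rich islands were left out, at chromosome 4, 145000000 to 148000000, chromosome 13, 12800000 to 13100000, and chromosome 14, 1 to 9000000. Of these 6066, 2524 (41.6%) overlapped no WT H3K27me3 island by 1 bp. Removing those with a WT H3K4me3 island left 2138, and removing those with a KO H3K4me3 island left 2021, which is 33.3% of the 6066. Because reads, input reads and FDR of the KO library decided whether an island was listed, these values describe the members and are not evidence about them. A further 181 islands inside the 3 segments and 86 on the sex chromosomes met the rest of the rule and are not among the 2021.

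The cells were mouse embryonic stem cells of strain 129/C57BL/6, kept on embryonic fibroblast feeders in serum medium with LIF. The group called KO carries the label BAF250a Knockout and was given 1 µM 4-hydroxytamoxifen for 36 hours from 4 hours after passage, and the group called WT had ethanol alone for as long, so the effects of the deletion and of the drug cannot be told apart. Each genotype had 1 H3K27me3 library, 1 H3K4me3 library and 1 input library, with chromatin fixed in 1% formaldehyde for 10 minutes and cut with micrococcal nuclease and brief sonication. With 1 library per genotype and mark there is no replicate spread and no test between genotypes, and every difference below is one between libraries. Feeder cells were not stated to be removed, and the loss of the deleted gene was not checked here. The 4 lists held 8067 (WT) and 6833 (KO) H3K27me3 islands and 28365 (WT) and 40978 (KO) H3K4me3 islands.

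H3K27me3 is the trimethylation of histone H3 at lysine 27, laid down by Polycomb repressive complex 2 through its catalytic subunit EZH2. In stem cells it covers broad domains over silent developmental regulator genes, many of which also carry H3K4me3 at their CpG-rich promoters and are then called bivalent. H3K4me3 marks promoters of active and poised genes, so an H3K27me3 island without it usually lies away from a marked promoter. BAF250a, encoded by Arid1a, is a DNA-binding subunit of the BAF form of the SWI/SNF remodelling complex, and BAF and Polycomb complexes are known to act against each other at many sites.

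The members were narrow and closely alike in read number. Their KO ChIP reads ran from 30 to 953, but the middle 50% of them held only 55 to 75. Widths ran from 400 to 17000 bp, with the middle 50% at 3200 to 4600 bp. There were 7 members (0.346%) of 10 kb or wider, where 6.26% of all 6066 KO islands were that wide. The deposited fold over input, which is ChIP reads over input reads multiplied by 1 constant for the list, ran from 1.12 to 20.9. It was 2 or more in 1443 members (71.4%, 69.4 to 73.4%), where 63.9% of all 6066 KO islands reached that fold. An FDR of 1e-05 or less was met by 1649 members (81.6%), where 80.5% of the 6066 met it. Together the members held 138670 ChIP reads and 57945 input reads over 7.98 Mb, a pooled fold of 2.33 (2.31 to 2.35, read counting error only). Those ChIP reads were 16.5% of the reads in all 6833 islands of the KO list, sex chromosomes and the 3 segments included.

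**Figure D1:**
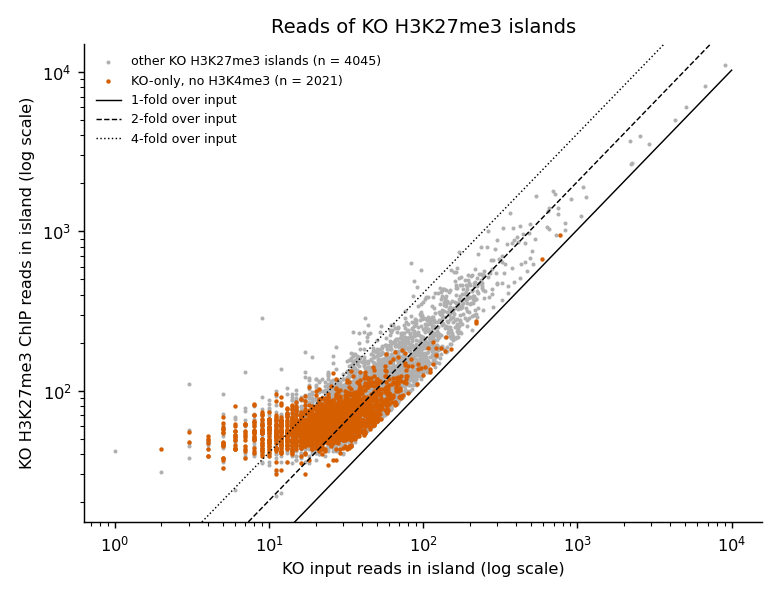
KO H3K27me3 ChIP reads against KO input reads, 1 point per autosomal KO island outside the 3 segments, both axes on a log scale, with lines at 1, 2 and 4-fold over input. The 2021 members (orange) form a flat band in which the middle 50% held 55 to 75 ChIP reads, while their input reads ran from 2 to 773.

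Fold differed among the members mainly with input, since their ChIP reads varied little. When members were ordered by input reads per kb and cut into 5 equal parts, the median fold was 4.66 in the part with the least input and 1.57 in the part with the most. Median ChIP reads in those parts were 62 and 65, and median ChIP reads per kb were 16.9 and 18.2. Over the 2021 members, Spearman's rho was −0.94 between fold and input per kb and 0.13 between fold and ChIP reads per kb. These are descriptions across islands of 1 library, and fold and input share the input reads. A high fold in this class therefore came with few input reads at the place more than with many ChIP reads.

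Members were narrower and had fewer reads than KO islands shared with WT, but not a lower fold. The 1210 shared islands without H3K4me3 had medians of 79 reads, 4200 bp and 2.42-fold. The 2332 shared islands with H3K4me3 had medians of 96 reads, 4600 bp and 2.20-fold. The 503 KO-only islands with H3K4me3 were like the members in reads (67) and width (3600 bp), but at a median of 1.83-fold. Median KO input reads per kb moved with these classes, at 6.67 in the members, 7.86 in shared islands without H3K4me3, 10.0 in KO-only islands with H3K4me3 and 9.74 in shared islands with it. The part of input in the fold differences was not tested.

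A larger share of KO-only than of shared H3K27me3 calls overlapped no H3K4me3 call. Of the 2524 KO-only islands, 2021 had no H3K4me3 island in either genotype (80.1%, 78.5 to 81.6%), against 1210 of 3542 shared islands (34.2%, 32.6 to 35.8%), and 53.3% over all 6066. The gap was present at each read level when the 6066 islands were cut into 5 equal parts by reads. In the lowest part (22 to 57 reads) the shares without H3K4me3 were 81.2% of KO-only and 44.4% of shared islands, and in the highest (119 reads or more) they were 64 of 98 (65.3%) and 246 of 1115 (22.1%). In the WT list, by the same rule mirrored, the shares were 70.5% of WT-only and 37.7% of shared islands, so the same direction held there. By read level the WT shares were 78.6% (76.1 to 80.9%) and 77.0% (71.9 to 81.5%) in the lowest part, 79.1% and 69.0% in the next, then 70.4% and 56.4%, 48.9% and 33.5%, and 28.2% and 15.0% in the highest. These intervals treat islands as independent and no test between the libraries was possible.

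**Figure D2:**
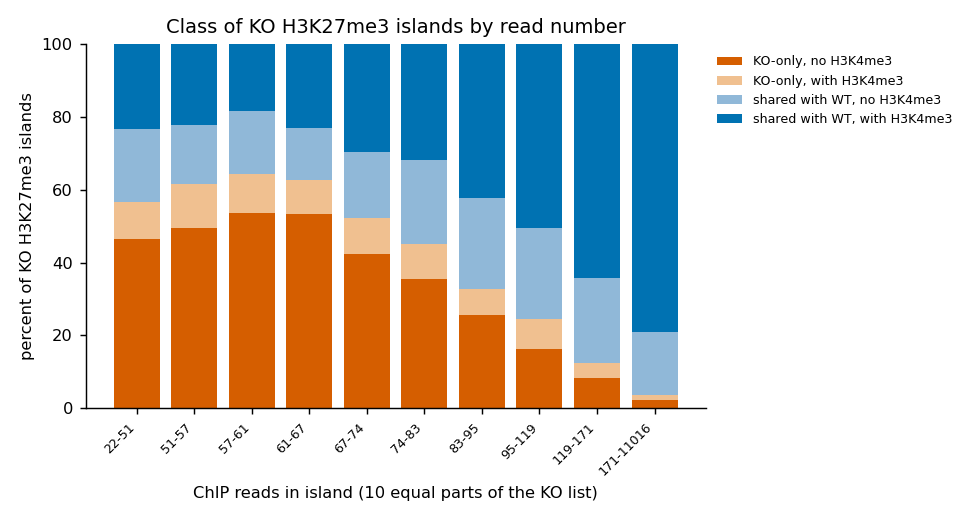
Share of the 6066 KO H3K27me3 islands in each of 4 classes, in 10 equal parts of the list ordered by ChIP reads (read range under each bar). Members (dark orange) made up 53.6% of the part at 57 to 61 reads and 2.31% of the part with most reads.

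The share of KO islands that were members depended strongly on their reads. With the 6066 islands cut into 10 equal parts by reads, it was 46.5% (42.4 to 50.5%) in the part with fewest reads and 53.6% at 57 to 61 reads. It was 16.1% at 95 to 119 reads and 2.31% (1.27 to 3.84%) at 171 reads or more, where only 14 members lay. Those 14 had a median fold of 1.44, against 2.14 for the other islands of that part. At 61 to 67 reads, where 53.2% of islands were members, their median fold was 2.52 against 2.22 for the others.

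An absent WT call does not show that the WT library had no reads there, because reads outside islands are not in the lists. The same holds for an absent H3K4me3 call in either genotype. The WT H3K27me3 list shows the fewest reads of a listed place at a given width, although a call also depends on the input there. Among WT H3K27me3 islands of 3 to 4 kb, where 733 members lie, the lowest had 52 reads and the median 82, and the members had 48 to 139 reads with a median of 61. Among WT islands of 4 to 5 kb the lowest had 62 reads and the median 114, against a median of 71 in the 451 members of that width. Among WT islands of 2 to 3 kb the lowest had 38 reads and the median 59, against a median of 52 in 411 members. In the KO H3K27me3 list the lowest and median were 47 and 65 reads at 3 to 4 kb. They were 54 and 81 at 4 to 5 kb, and 40 and 54 at 2 to 3 kb. The depth of the 2 libraries relative to each other is not known, so these read numbers are set side by side without scaling.

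The 4 members with most reads were places of high input with a fold close to 1. At chromosome 8, 56196201 to 56209200, 13 kb wide, the KO library had 953 ChIP reads over 773 input reads, 1.20-fold (1.09 to 1.32, counting error). At chromosome 1, 90190401 to 90207400, the widest member at 17 kb, it had 675 and 585 reads, 1.12-fold (1.00 to 1.26). At chromosome 6, 103599001 to 103599400, only 400 bp wide, it had 273 and 221 reads, or 682 and 552 reads per kb. That input density is far above the median of 6.67 over the members. At chromosome 5, 105353801 to 105358000, the reads were 265 and 220, and the interval of the fold, 0.977 to 1.41, spanned 1. In all, 10 members (0.495%) had more than 3 times the list's median input per kb, where 0.808% of the 6066 islands did.

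The next 4 members by reads had a modest fold, and their input of 10.5 to 15.3 reads per kb was above the members' median of 6.67. Chromosome 14, 20324601 to 20337400, had 216 reads over 140 in the input (interval of the fold 1.21 to 1.87) and lay 1 kb from a WT H3K27me3 island. On the same chromosome, 20390601 to 20399600 had 186 over 120 (1.51-fold) and lay 6.8 kb from a WT island. Chromosome 7, 15833001 to 15844000, had 201 over 116 (1.69-fold, 1.34 to 2.14) and lay 586.2 kb from the nearest WT H3K27me3 island. Chromosome 17, 13634001 to 13641000, had 186 over 107 (1.69-fold) and lay 121.4 kb from one. Of the 20 members with most reads, 8 had a fold under 1.5 and 7 a fold of 2 or more.

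The members with the highest fold, among those with 50 or more reads, were narrow places with very few input reads. At chromosome 13, 27316801 to 27320200, 55 ChIP reads stood over 3 input reads, 17.8-fold with an interval of 5.80 to 89.2. The nearest WT H3K27me3 island was 667.2 kb away and the nearest KO H3K4me3 island 130.6 kb away. At chromosome 17, 22468001 to 22471400, the reads were 68 over 5 (13.2-fold, 5.40 to 42.1). At chromosome 6, 44037201 to 44041400, they were 80 over 6 (13.0-fold, 5.71 to 36.4), with another KO H3K27me3 island 12.8 kb away. The other members in this group lay at chromosome 3, 3192801 to 3195200 (52 over 4 reads), chromosome 6, 41171801 to 41175600 (63 over 5), and chromosome 11, 64509201 to 64511600 (50 over 4). Their folds were 12.2 to 12.7. The nearest WT H3K27me3 island lay 115.2 kb (chromosome 6, 41171801) to 1548 kb (chromosome 3) from these 6 members, so none bordered H3K27me3 called in WT.

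One wide member combined ordinary input with a fold above 2. At chromosome 17, 21410401 to 21422000, an island of 11.6 kb held 175 ChIP reads over 65 input reads, 2.62-fold (1.96 to 3.54), with the nearest WT H3K27me3 island 30.8 kb away and the nearest H3K4me3 island of either genotype over 68 kb away. It was the fourth widest member.

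At the edge of the rule, members and non-members had like values. The smallest gap was 0 bp, an end that touched a WT island without overlap, in 11 members with medians of 62 reads and 2.14-fold. The smallest overlap was 200 bp, 1 SICER window, in 23 KO islands without H3K4me3 that the rule left out, with medians of 64 reads and 2.24-fold. Just inside lay chromosome 1, 78163601 to 78167000 (61 reads over 38, 1.56-fold), chromosome 10, 23058201 to 23064000 (82 over 31, 2.57-fold), and chromosome 10, 90281601 to 90288200 (123 over 56, 2.14-fold). Just outside lay chromosome 1, 19353001 to 19357800 (79 over 16, 4.81-fold), chromosome 1, 42731001 to 42734400 (60 over 22, 2.66-fold), and chromosome 10, 50637201 to 50643200 (90 over 46, 1.90-fold). The other threshold was the FDR of the list, where the members ranged from 1.85e-58 to 0.0496 with a median of 6.55e-11, and 63 members lay above 0.01.

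Of the 2021 members, 472 (23.4%, 21.5 to 25.3%) had a WT H3K27me3 island within 10 kb, and 44.4% had one within 50 kb. Only 55 members (2.72%) had a WT island within 10 kb on both sides. Near the 472, the nearest WT island was one shared with KO in 279 cases (59.1%, 54.5 to 63.6%) and a WT-only island in the others, where 46.9% of all WT islands were shared. It carried H3K4me3 in 178 cases (37.7%), where 44.8% of all WT islands did, and 145 of these were shared islands with a median width of 5800 bp and 163 reads. A WT-only island without H3K4me3 was the nearest in 160 cases (33.9%), where 37.5% of all WT islands were of that class. Members within 1 kb of a WT island had medians of 68 reads and 2.39-fold, and those over 100 kb away 62 reads and 2.61-fold, with input at 7.22 and 6.25 reads per kb.

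**Figure D3:**
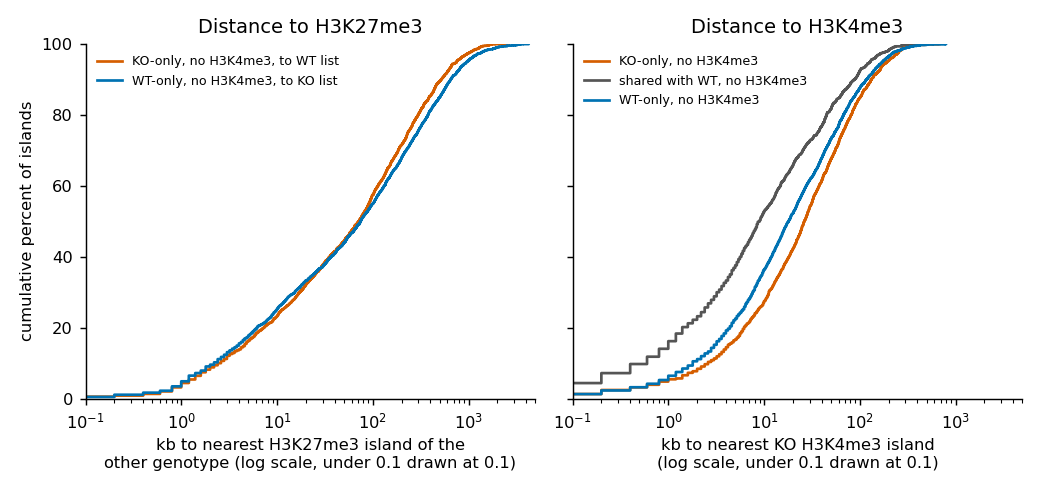
Cumulative percent of islands against the gap in kb (log scale) to the nearest H3K27me3 island of the other genotype (left) and to the nearest KO H3K4me3 island (right). The KO-only and WT-only curves run close together on the left (23.4% and 25.3% within 10 kb), and on the right the members lie farthest from H3K4me3, with 27.5% within 10 kb against 52.9% of shared islands.

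H3K4me3 was also farther from the members than from other islands without it. The rule asked only that it did not overlap. The nearest KO H3K4me3 island lay at a median of 26.4 kb from the members, 9.0 kb from shared H3K27me3 islands without H3K4me3 and 18.0 kb from WT-only islands without it. Within 10 kb these shares were 27.5% (25.6 to 29.5%), 52.9% (50.0 to 55.7%) and 36.4% (34.6 to 38.3%). From WT H3K4me3 islands, which are fewer, the medians were 39.8, 12.8 and 27.2 kb. Over both marks, 1220 members (60.4%) had no WT H3K27me3 island and no H3K4me3 island of either genotype within 10 kb, and 217 (10.7%) had none within 100 kb. Those 217 had medians of 61 reads and 2.81-fold, and 139 members had no other island of any list within 100 kb.

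Most members stood singly, and a few formed dense groups. Another KO H3K27me3 island lay within 50 kb of 49.4% of the members. The shares were 46.3% of KO-only islands with H3K4me3 and 76.9% of shared islands without it. Of WT-only islands without H3K4me3, 55.3% had another WT H3K27me3 island within 50 kb. Chained at gaps of at most 50 kb, the 2021 members gave 1659 chains, of which 1423 held 1 member and 236 held 2 or more, with 598 members (29.6%, 27.6 to 31.6%). The 3 largest chains all lay on chromosome 7. The largest spanned 7312601 to 7502800 and held 11 members, the only H3K27me3 islands of either genotype in that span, with 43 to 130 reads and 7 to 30 input reads each. All 11 had a fold over 2 (2.09 to 7.51), and no WT H3K27me3 island lay within 747.8 kb. The chain at 10565001 to 10626000 held 10 members over 63.9% of its 61 kb, with 60 to 102 reads each and folds of 1.58 to 5.52, and the nearest H3K4me3 island was 250.0 kb away. The chain at 15717601 to 15844000 held 10 members with 57 to 201 reads and folds of 1.69 to 3.76. None of the 3 chains held a WT H3K27me3 or an H3K4me3 island.

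These chains belong to a stretch of 3 adjoining tiles of 5 Mb, chromosome 7 from 5 to 20 Mb, picked out after the values were seen. It had 79 KO H3K27me3 islands, of which 71 were members (89.9%, 81.0 to 95.5%), where 33.3% were members over all autosomes. WT had 17 H3K27me3 islands there, 7 of them shared and 8 WT-only without H3K4me3. The 71 members had 43 to 201 reads, a median of 66, and folds of 1.45 to 9.15, and 53 of them had a fold of 2 or more. Their pooled fold was 2.47 and their median input 6.88 reads per kb, close to the 6.67 of all members. The stretch was not without H3K4me3 calls, since 178 KO and 202 WT H3K4me3 islands shared between the genotypes lay in it. At those islands, input per kb in KO over WT, relative to all autosomes, was 0.938 (0.913 to 0.964) over the whole stretch. The tiles differed, at 1.033 (0.966 to 1.106) for 5 to 10 Mb and 1.039 (0.978 to 1.104) for 10 to 15 Mb. The tile from 15 to 20 Mb, with 6870 of the 11047 KO input reads, stood at 0.879 (0.8498 to 0.9102). These ratios are taken over H3K4me3 islands called separately in each library, not over the member places, for which the lists hold no WT input. The part of input in the members of this stretch was not tested.

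**Figure D4:**
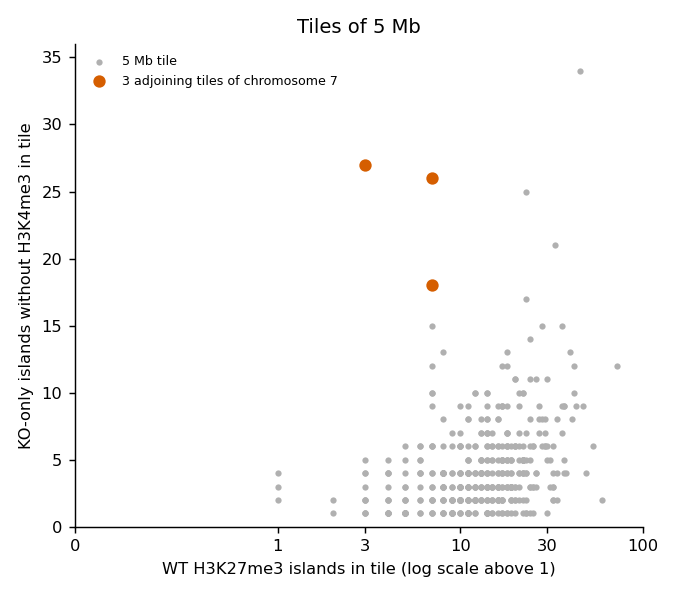
Members against WT H3K27me3 islands in each 5 Mb tile that holds a member (452 tiles), x axis on a log scale above 1. The 3 adjoining tiles of chromosome 7 (orange) held 27, 18 and 26 members with 3 to 7 WT islands, where the median tile held 4 members.

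Of the 12 tiles with most members, the other 9 held between 7 and 45 WT H3K27me3 islands. The tile with most members, chromosome 14 from 40 to 45 Mb, had 34 among 72 KO islands, but also 45 WT islands, of which 41 were shared, and a median member fold of 1.92. Chromosome 6 from 40 to 45 Mb had 25 members among 34 KO islands, with 23 WT islands of which 14 were WT-only without H3K4me3, so both libraries had private calls there. Its median fold was 3.23. Chromosome 15 from 60 to 65 Mb, with 15 members among 17 KO islands and 7 WT islands, and chromosome 11 from 35 to 40 Mb, with 13 among 16 and 8 WT islands, had few WT islands like the chromosome 7 tiles. Chromosome 7 from 65 to 70 Mb had 17 members with a median fold of 4.87 and the low input of 3.53 reads per kb. Input per kb at shared H3K4me3 islands, in KO over WT and relative to all autosomes, was between 0.879 and 1.08 in the 12 tiles with most members, with the same limit. The lowest value was that of chromosome 7 from 15 to 20 Mb.

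By autosome, members made up 26.5% (chromosome 9, 21.4 to 32.1%) to 43.0% (chromosome 7, 38.5 to 47.7%) of the KO H3K27me3 islands. The interval of 1 autosome, chromosome 7, lay above the 33.3% over all autosomes, and the intervals of 2, chromosomes 9 and 19, lay below it. Chromosome 7 had 198 members, 71 of them in the stretch from 5 to 20 Mb. Without that stretch its share was 33.3% (28.6 to 38.3%). The stretch was picked for its many members, so leaving it out had to lower the share. No other autosome had tiles left out.

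**Figure D5:**
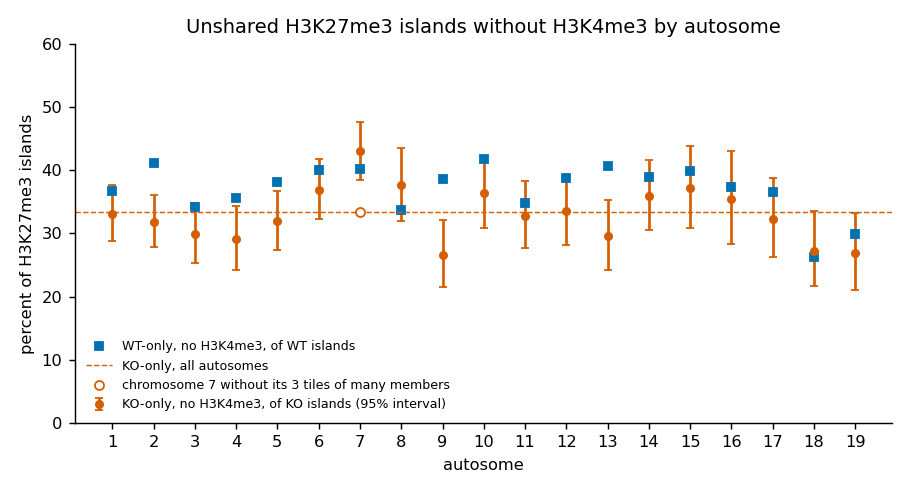
Members as a percent of the KO H3K27me3 islands of each autosome (orange, bars are 95% exact binomial intervals), with WT-only islands without H3K4me3 as a percent of WT islands (blue). Chromosome 7 stood at 43.0%, and at 33.3% without its 3 tiles of many members (open point).

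The mirrored class, islands called only in WT without H3K4me3, was larger and had less input under it. It held 2747 of 7332 WT islands, where 53.1% of WT islands had no KO partner. Its medians were 54 reads, 2600 bp and 4.17-fold, against 63 reads, 3800 bp and 2.51-fold in the members. Median input was 3.12 reads per kb in the WT-only class and 6.67 in the members, from 2 different input libraries, and 68 of the WT-only islands had no input read. Few islands of either class held 100 or more reads. They were 161 of the WT-only islands (5.86%, 5.01 to 6.81%), where 31.8% of all 7332 WT islands did, and 132 of the members (6.53%, 5.49 to 7.70%), where 27.7% of all 6066 KO islands did. Calls private to 1 library were present in both directions. Their read numbers and the cut at 100 reads are not scaled for depth. By the fold constants, ChIP over input depth was 1.68 in WT and 1.03 in KO, so that cut was the stricter one in KO. None of these counts shows a net gain or a net loss of H3K27me3 in KO.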

How the data were processed

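Chromatin immunoprecipitation libraries of 50 bp reads were used. Per the submitters' processing notes, the tools were Bowtie (no version given) and SICER 1.1 on build mm9. Per the names of the deposited lists, SICER ran with 200 bp windows at an FDR of 0.05, and joined windows over gaps of 600 bp (H3K27me3) or 200 bp (H3K4me3). Duplicate handling is not given in the sources used here. The deposited ChIP and input read counts per island are not scaled. The deposited fold ratio is their quotient times 1 constant per list, with 0.25 for an input of 0. The deposited p-value and FDR compare ChIP with scaled input. The title of the KO sample reads H2K27me3, its antibody label H3K27me3. Positions are 1-based in mm9. Genes and sequences under the islands were not analysed here, because that needs an mm9 genome or annotation, and the gene tables used here are of GRCm38.

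Members were found by overlap of 1 bp. The result differed by 0 islands from bedtools 2.31.1. Overlap and gap calculations gave 0 errors on 3000 simulated islands. Members and classes were chosen with earlier results of these data known. Named regions follow a fixed rule: most reads, highest fold among islands with 50 or more reads, widest, most reads beyond 100 kb from WT islands, and nearest the edge of the overlap rule. Intervals are 95% exact binomial for shares and folds and rank-based for medians. They cover counting error, or treat islands as independent draws, and none covers spread between libraries. Library totals are not in the lists. The fold constant of a list is the inverse of its ChIP over input depth. That depth was 1.78 (WT) and 1.35 (KO) for H3K4me3, and 1.68 (WT) and 1.03 (KO) for H3K27me3. Alternatives changed the FDR, fold, reads, overlap and chromosomes. Software was Python 3.11.15 with scipy 1.17.1, pandas 2.3.3, numpy 2.4.6 and matplotlib 3.10.9.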

Additional observations from a re-analysis of the deposited data

How the results depend on the processing

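Of 60 alternatives over 11 results, 38 left the value within its interval or within 1.5 times the count, and 22 moved it; no cause was tested beyond the alternative's own construction. No paired analysis was possible because each genotype and mark has 1 library, and the nuclease samples that share replicate numbers have no island list. The member count lay between 1443 and 2524 under the other planned settings, but was 132 with 100 or more reads. The WT-only count at that cut was 161, and the cut is not scaled for depth. Members with 100 or more reads had medians of 117.5 reads, 6600 bp, 2.14-fold and 8.53 input reads per kb, with 40.2% within 10 kb of WT H3K27me3 and 31.1% of KO H3K4me3. At an FDR of 1e-05 the median fold was 2.76 and input 6.00 per kb. At a fold of 2 or more they were 2.92 and 5.75, 20.9% lay within 10 kb of WT H3K27me3, and the share on chromosome 7 was 47.8%. With 50% overlap of the smaller island, median fold was 2.43, input 6.96 per kb, and 30.1% and 35.7% lay within 10 kb of WT H3K27me3 and KO H3K4me3. Added after the data were seen, chains at 20 and 100 kb held 17.7% and 40.1% of members, chromosome 7 without its 3 tiles stood at 33.3%, and 1181 members met a fold of 2, an FDR of 1e-05, 5 kb from WT H3K27me3 and 1 kb from H3K4me3 together.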
